A study of Homo sapiens with 7 samples.

Results

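HHEX and PROX1 are homeobox genes that act where liver and pancreas arise from the foregut endoderm, and the regions that 3 transcription factors occupied around them were described here. A region belonged to a locus when its midpoint lay within 200 kb of the gene span on hg19, which is chromosome 10 at 94449681 to 94455408 for HHEX and chromosome 1 at 214156524 to 214214595 for PROX1. This gave 43 regions of the 86081 in all 4 peak lists, with 22 at HHEX and 21 at PROX1. The samples were chromatin immunoprecipitates of CyT49, an established human embryonic stem cell line, taken through pancreatic differentiation in vitro. HNF6 (ONECUT1) was precipitated on day 5 (GTE stage, gut tube endoderm) and on day 10 (PE stage, pancreatic progenitors), GATA6 on day 10 (PE stage) and NKX6.1 on day 13 (PP stage). Every group was made of the same cell line, with no genetic change named in the labels. The antibody characteristic matches each title, although the shared extraction protocol mentions an NKX6.1 antibody alone. Because 1 library stood for each factor and day, nothing below could be checked across replicates and p-values are not given. Input libraries of the 3 days were left out of the work.

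HHEX is a homeodomain factor that the mouse embryo needs to form the liver bud and the ventral pancreas, and in mouse islets it maintains the somatostatin-producing delta cells. PROX1 is a prospero-type homeodomain factor, required in the mouse for hepatoblasts to leave the liver bud and for growth of the pancreas, and it also specifies lymphatic endothelium. HNF6 carries a cut domain beside its homeodomain and acts in liver, bile duct and pancreas development. GATA6 binds DNA through zinc fingers, and its loss in people can prevent pancreas formation. NKX6.1, another homeodomain protein, marks progenitors of the pancreas and later the beta cells. In chromatin immunoprecipitation with sequencing, a listed region is a stretch at which fragments precipitated with the factor pile up. The region lists show neither which gene a region acts on nor how much of a gene is expressed. In RefSeq order on GRCh38 the protein-coding neighbours are IDE and KIF11 before HHEX and EXOC6 after it, RPS6KC1 before PROX1 and SMYD2 after it.

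No listed region of any factor covered the first base of either gene span, which is taken as the start site throughout. Other start sites that either gene may use were not checked. At HHEX the nearest region edge to the start of the gene span was that of an HNF6 day 10 region, 3.50 kb into the gene, and at PROX1 it was that of an HNF6 day 10 region, 4.66 kb into the gene. The promoter of HHEX is shown because the RefSeq promoters used held 1 for HHEX and 0 for PROX1. Although the GATA6 list is partial, the HHEX promoter had no listed region over it. It holds the 250 bases before the RefSeq start (GRCh38.p14, chr10:92689705-92689954, plus strand), with the 4-letter core GATA, on either strand, in capitals.

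HHEX promoter: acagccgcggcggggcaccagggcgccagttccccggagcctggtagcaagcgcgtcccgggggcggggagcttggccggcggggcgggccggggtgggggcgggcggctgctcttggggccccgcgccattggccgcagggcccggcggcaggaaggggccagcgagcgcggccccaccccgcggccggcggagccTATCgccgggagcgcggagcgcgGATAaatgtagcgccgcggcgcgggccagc

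Cores were found 53 and 30 bases before the start. Of 35097 RefSeq promoter windows of 300 bases, 49.7% hold GATA on either strand. The longer forms AGATAA and TGATAA, the HNF6 letters ATCGAT and ATTGAT and the NKX6.1 letters TTAATT were not in the HHEX window on either strand, and 16.3%, 6.96% and 10.4% of all windows hold them. The window was rich in G and C, at 80.3% against a median of 58.7%. Letters in this window are a description, and the sequences under the hg19 regions themselves were not analysed here.

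HNF6 on day 10 made up most of the listed regions at both genes, as it does in the 4 lists together (64919 of 86081). It had 17 of 22 regions at HHEX and 16 of 21 at PROX1. The day 5 list of 250 regions had 0 at either gene. With so short a list, 96.9% of genome windows as long as the HHEX window and 96.6% of those as long as the PROX1 window held no day 5 region either. The nearest day 5 regions lay 4.62 Mb after HHEX and 13.3 Mb before PROX1. GATA6 on day 10 had 5 listed regions at HHEX and 1 at PROX1. NKX6.1 on day 13 had 0 at HHEX and 4 at PROX1.

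**Figure D1:**
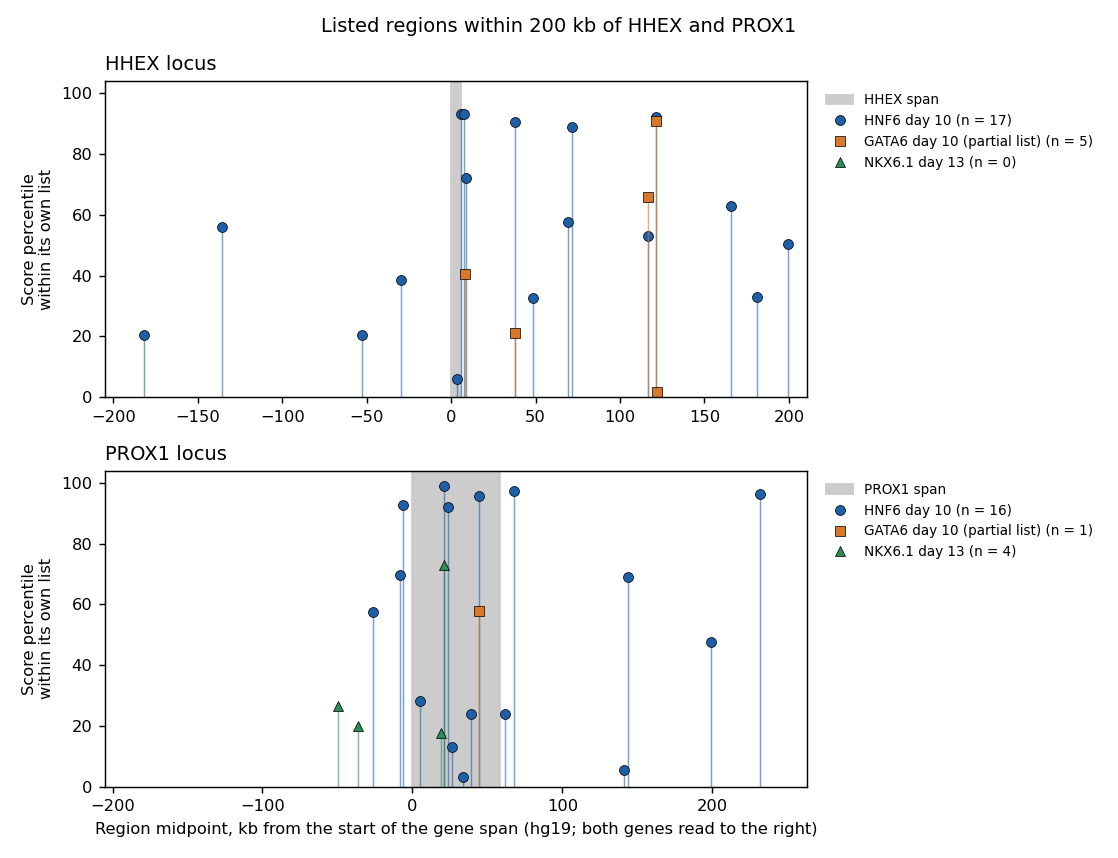
Each marker is a listed region, placed by its midpoint in kb from the start of the gene span and by the percent of its own list with the same or a lower score; grey bands are the gene spans. At HHEX the upper markers lie after the gene and no NKX6.1 region is present, whereas at PROX1 high HNF6 markers lie before, within and after the gene.

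Per length, both loci held more HNF6 regions than the average of the list. The HHEX window held 41.9 per Mb and the PROX1 window 34.9 per Mb, against 21.3 per Mb over the list, ratios of 1.97 (exact Poisson 95% interval 1.15 to 3.15) and 1.64 (0.939 to 2.67). When the genome was tiled with windows of the same length, 9.71% of 7509 windows held at least the 17 regions of HHEX and 17.1% of 6649 windows at least the 16 of PROX1. The HHEX interval lies above 1 and the PROX1 interval includes it, but Poisson intervals treat regions as falling independently. Genome windows of the HHEX length held from 0 to 46 regions, a spread between windows that the intervals do not measure. With 100 kb on either side the ratios were 2.29 at HHEX and 2.55 at PROX1, and with 500 kb they were 1.17 and 1.78. Which locus was the denser thus depended on the window size. Among regions at or above the median score, 5.07% of windows held as many as HHEX and 15.0% as many as PROX1. These intervals cover counting error only.

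**Figure D2:**
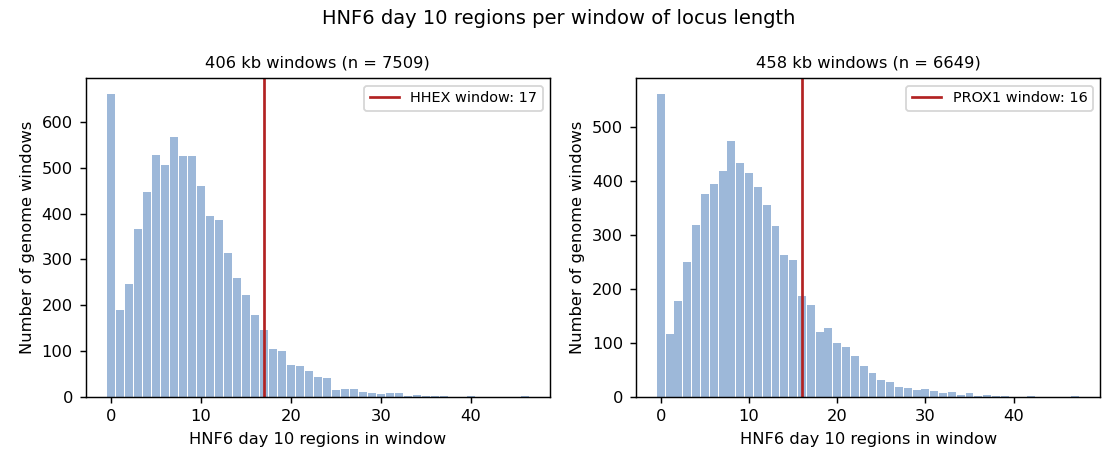
Bars count non-overlapping genome windows by the number of HNF6 day 10 regions they hold, with 406 kb windows for HHEX on the left and 458 kb windows for PROX1 on the right. The red lines, at 17 for HHEX and 16 for PROX1, fall in the upper part of each distribution, with windows of up to 46 and 47 regions beyond them.

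At HHEX the HNF6 regions lay mainly after the gene. Of the 17 regions, 12 were downstream of the gene span, 4 upstream and 1 inside it. The upstream regions had scores of 41, 89, 41 and 62, in order along the chromosome, and the highest stood at the score percentile 55.8 of the list, where the percentile is the percent of the list's regions with the same or a lower score. The downstream regions had scores of 55 to 539 with a median of 130, and all 4 HHEX regions in the upper score decile of the list were among them. The region inside the gene, at 94453177 to 94453438, was the weakest of the locus, with a score of 26 (percentile 5.83).

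A tight group of 3 HNF6 regions stood just past the end of HHEX. They began 102 bases after the gene span and lay within 2837 bp, from 94455511 to 94458347. The first, at 94455511 to 94455900, had a score of 536 (percentile 93.2). The second, at 94456936 to 94457964, had 539 (percentile 93.3), the highest of the locus. The third, at 94458045 to 94458347, had 151 (percentile 72.3), and only 80 bases separated it from the second. The second region was 1029 bp wide, and the list gave it 2 rows with scores of 335 and 539. Close neighbours are common in the list. Of its HNF6 regions, 32.9% had another midpoint within 5 kb, against 47.1% at HHEX and 43.75% at PROX1.

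Farther downstream, 9 more HNF6 regions had scores from 55 to 475. The region 37.9 kb from the HHEX start, at 94487413 to 94487756, had a score of 403 (percentile 90.4). At 71.7 kb, the region at 94521199 to 94521543 had 360 (percentile 89.0), just under the upper decile, with a weaker neighbour of score 97 at 94518878 to 94519157. At 121.4 kb, the region at 94570574 to 94571680 had 475 (percentile 92.2). It was the widest of the locus at 1107 bp, wider than 99.9% of the list, and was given as 3 rows with scores of 475, 45 and 218. Regions of several rows were 2 of 17 at HHEX and 0 of 16 at PROX1, against 2.11% of the whole list. The remaining downstream regions had scores of 109 at 94615447 to 94615752, 87 at 94566289 to 94566623, 79, 56 and 55.

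All 5 listed GATA6 regions of HHEX lay after the gene, in a list that is partial. They were 8.01, 37.9, 116.8, 121.1 and 121.6 kb from the HHEX start, and 0 were listed upstream of the gene or inside it. The list holds GATA6 at HNF6 regions alone, and 12 of the 17 HNF6 regions lay downstream. The side on which GATA6 was listed is therefore not independent of the HNF6 layout. The density of the 5 GATA6 regions was 5.98 times that of the GATA6 list (1.94 to 14.0), and 1.199% of the windows of this length held 5 or more. This count includes 2 GATA6 regions that lie 52 bases apart at 1 HNF6 region, so the 5 lie at 4 HNF6 regions. The share of windows was not recounted with these 2 taken as 1. Every listed GATA6 region lies at an HNF6 region, and among the windows with at least as many HNF6 regions as HHEX 9.19% held 5 or more. Among GATA6 regions at or above the median score HHEX held 2, which 8.59% of all windows reached, and with 500 kb on either side the density ratio was 2.41. The strongest, at 94570474 to 94571124, had a score of 541 (percentile 90.8 of the GATA6 list). The next, at 94566216 to 94566666, had 165 (percentile 65.9). The region at 94457465 to 94457907 had 79 (percentile 40.4), that at 94487460 to 94487682 had 49 (percentile 21.0) and that at 94571177 to 94571417 had 18 (percentile 1.59). Of the 5 regions, 3 scored below the median of the GATA6 list, which was 102.

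Every one of these GATA6 regions overlapped an HNF6 region, as does every region of the GATA6 list, so this overlap by itself is not a result. From the HNF6 side, 4 of the 17 HHEX regions overlapped listed GATA6, or 23.5% (Wilson 95% interval 9.56 to 47.3), against 9.66% of the whole HNF6 list. The interval includes the background share. In the upper score decile the number was 3 of 4 at HHEX (30.1% to 95.4%), against 35.4% of the list. Below that decile it was 1 of 13 (1.37% to 33.3%), against 6.80%. Both of these intervals include the background share as well.

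The overlapping pairs at HHEX differed in where each factor stood within its own list. The GATA6 percentiles are those of a partial list, so they are not ranked against the HNF6 percentiles. At 94456936 to 94457964 the HNF6 percentile was 93.3 and that of GATA6 40.4, and the GATA6 region filled 443 bp of the later part of the HNF6 region, with midpoints 236 bp apart. At 94487413 to 94487756 the HNF6 percentile was 90.4 and that of GATA6 21.0, with midpoints 13.5 bp apart. At 94566289 to 94566623 the percentile was 53.1 for HNF6 and 65.9 for GATA6, and the HNF6 region lay wholly inside the GATA6 region. The wide region at 94570574 to 94571680 overlapped 2 GATA6 regions that were 52 bases apart, the stronger of which shared 551 of its 651 bp. There HNF6 (percentile 92.2) and the stronger GATA6 region (percentile 90.8) were both high. This was the HHEX region at which both factors ranked in the upper decile of their lists, but the midpoints of that pair were 328 bp apart. The weaker GATA6 region (percentile 1.59) had its midpoint 170 bp from that of HNF6. With midpoints within 200 bp, the HNF6 region keeps GATA6 through the weaker region alone. Over all overlapping pairs of these lists the median midpoint distance was 63 bp.

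**Figure D3:**
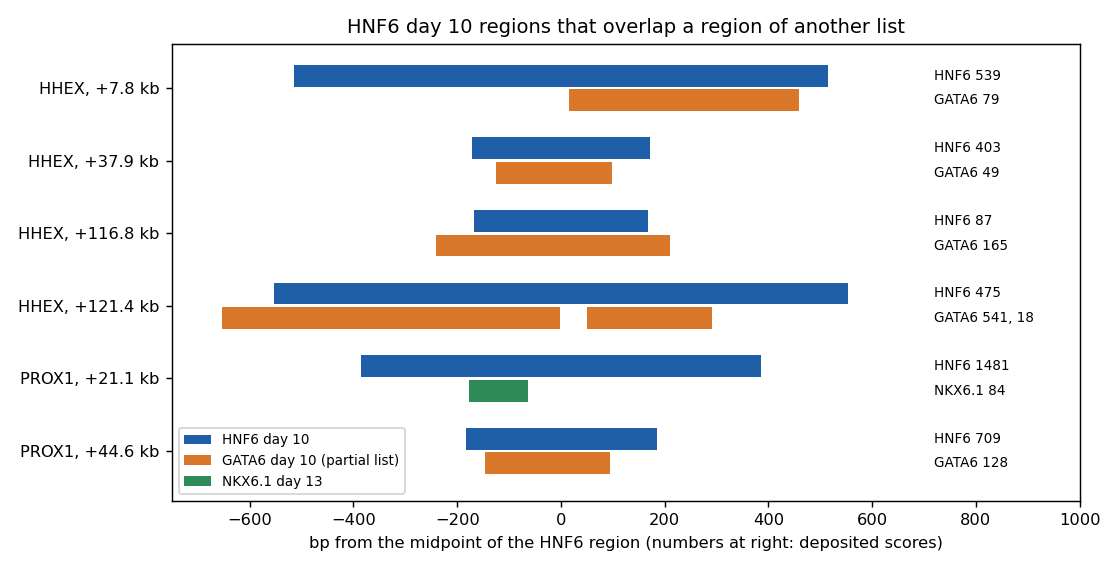
Horizontal bars give the extent, in bp from the midpoint of the HNF6 region, of each HNF6 day 10 region (blue) at the loci that overlaps a GATA6 (orange) or NKX6.1 (green) region, with the deposited scores at the right; row labels give the distance from the gene start. The HHEX rows at +7.8 and +121.4 kb are the widest HNF6 regions, and the PROX1 row at +21.1 kb is the only pair with NKX6.1.

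NKX6.1 was not listed within 200 kb of HHEX. With 0 of 17 HNF6 regions overlapping it, a share of up to 17.6% is allowed, which includes the background of 3.20%. Of the 729 genome windows of this length with at least 17 HNF6 regions, 18 held no NKX6.1 region, or 2.47% (1.57 to 3.87), and the median was 4. The median number of listed GATA6 regions in the same 729 windows was 2. Over all windows of this length, 25.7% held no NKX6.1 region. With 100 kb on either side of the gene, where the HHEX window holds 10 HNF6 regions, 14.2% of 1250 equally rich windows had no NKX6.1 region. The nearest NKX6.1 region had a score of 63 and lay 299.95 kb after HHEX. Factor, antibody, day and library differ together between the NKX6.1 list and the others and cannot be told apart.

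**Figure D4:**
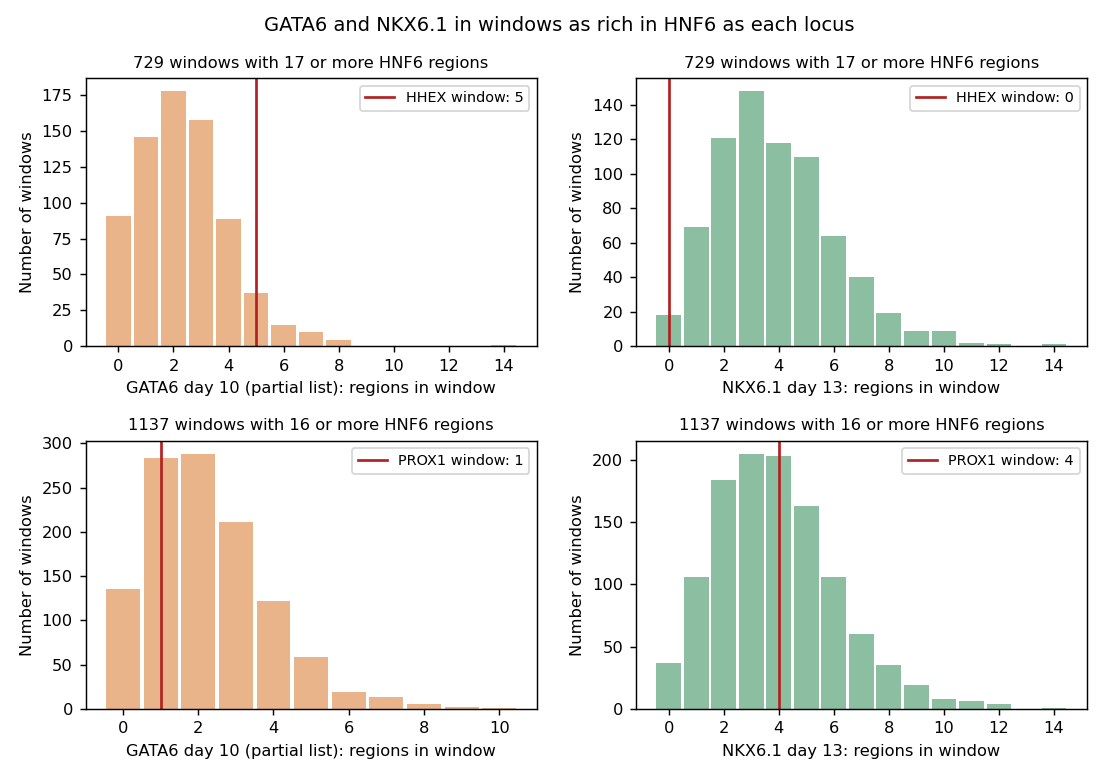
Bars count genome windows by their number of listed GATA6 regions (left) and NKX6.1 regions (right), among windows of locus length with at least as many HNF6 day 10 regions as the HHEX window (upper row) or the PROX1 window (lower row). HHEX, at 5 GATA6 and 0 NKX6.1 regions, lies toward opposite ends of the upper distributions, and PROX1 lies at the lower quartile for GATA6, with 1 region, and at the median for NKX6.1, with 4.

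PROX1 was occupied in and close to the gene. Of its 16 HNF6 regions, 7 lay inside the gene span, which is 12.7% of the window, 3 upstream within 26.5 kb and 6 downstream. Whether regions inside the gene lie in introns or exons was not analysed here. The regions inside the span had scores of 49, 1481, 474, 34, 22, 46 and 709, in order along the chromosome, so strong and weak regions stood side by side. The strongest, at 214177229 to 214177999, lay 21.1 kb into the gene, was 771 bp wide and had percentile 98.9, rank 723 of 64919. It was followed 2.81 kb later by the region at 214180255 to 214180593 (score 474, percentile 92.1). The region at 214200917 to 214201284, 44.6 kb into the gene, had a score of 709 (percentile 95.5). The region nearest to the start site, at 214161186 to 214161581, had 49 (percentile 28.4). The 3 others inside the gene, at 214182688 to 214182864, 214190141 to 214190330 and 214195316 to 214195502, lay at percentiles 13.1, 3.35 and 24.0.

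On either side of PROX1, further strong HNF6 regions flanked the gene. Upstream, the region at 214150250 to 214150556 lay 6.12 kb before the start and had a score of 501 (percentile 92.7). The neighbours at 214148274 to 214148603 and 214129916 to 214130148 had 139 (percentile 69.7) and 96 (percentile 57.4). Downstream, the region at 214223860 to 214224322 lay 9.50 kb past the gene end and had 982 (percentile 97.4), and the region at 214388224 to 214388573 lay 173.8 kb past it and had 815 (percentile 96.4). The region at 214218031 to 214218384, 3.61 kb past the gene end, had 46 (percentile 24.0), and the region at 214300271 to 214300539 had 134 (percentile 69.1). The other downstream regions had scores of 25 and 77. From the last region next to the gene, 73.4 kb without an HNF6 region followed.

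The HNF6 regions of PROX1 reached higher in the list than those of HHEX. Of 16 regions at PROX1, 6 were in the upper score decile, or 37.5% (18.5 to 61.4), and of 17 at HHEX 4 were, or 23.5% (9.56 to 47.3), against 10.0% of the whole list. The highest percentile was 93.3 at HHEX and 98.9 at PROX1. The median score was 89 at HHEX and 115 at PROX1, against 79 in the list, and 6 of 17 and 7 of 16 regions lay below the list's median. At PROX1 6 regions lay above percentile 90 and 6 below percentile 30. The share below percentile 30, also 37.5%, is near the 30% of the list that lies there by definition. No test compares the 2 genes, since the regions of a library are not replicates.

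**Figure D5:**
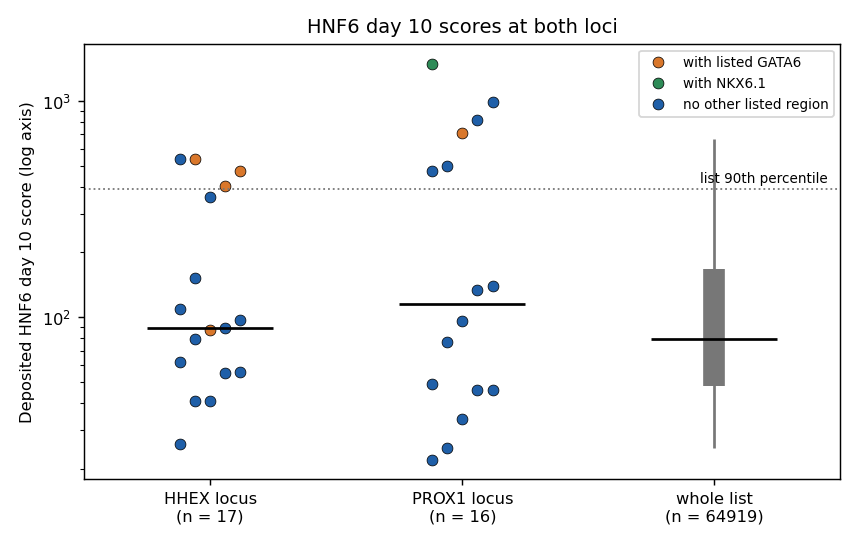
Points are the deposited scores of the HNF6 day 10 regions at HHEX and PROX1 on a log axis, coloured by overlap with a listed GATA6 or an NKX6.1 region, and black lines are medians; for the whole list the thick bar spans the quartiles and the thin line percentiles 5 to 95. The dotted line at a score of 392 is percentile 90 of the list, which 4 regions of HHEX and 6 of PROX1 exceed.

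PROX1 carried partners at 2 of its strong HNF6 regions, and at different ones. NKX6.1 lay at the strongest HNF6 region, where the NKX6.1 region at 214177436 to 214177549 (score 84, percentile 73.1 of the NKX6.1 list) was wholly inside the HNF6 region with midpoints 121.5 bp apart. GATA6 lay at the region 44.6 kb into the gene, where the GATA6 region at 214200954 to 214201194 (score 128, percentile 57.7) was wholly inside the HNF6 region with midpoints 26.5 bp apart. No HNF6 region of either locus overlapped GATA6 and NKX6.1 together. The share of the whole list with both is not given here, and it cannot exceed the 3.20% with NKX6.1. So small a share leaves few such regions to find at 2 loci. Overlap with GATA6 was 1 of 16, or 6.25% (1.11 to 28.3), against 9.66% of the list, and with NKX6.1 also 1 of 16, against 3.20%. Both intervals include the background. In the upper score decile each partner was at 1 of 6 regions (3.01% to 56.4%), against 35.4% of the list for GATA6 and 11.2% for NKX6.1. The share of HNF6 regions that overlap a day 5 HNF6 region was 0 of 17 and 0 of 16, against 0.347% of the list.

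The other NKX6.1 regions of PROX1 stood apart from HNF6. The region at 214175498 to 214175583 (score 28, percentile 17.7) lay inside the gene, 2.07 kb before the midpoint of the strongest HNF6 region. Those at 214106842 to 214106917 (score 35, percentile 26.7) and 214120008 to 214120089 (score 30, percentile 20.0) lay 49.6 and 36.5 kb before the gene. Overlap with HNF6 was therefore 1 of 4, against 14.3% of the NKX6.1 list. The 4 regions made 1.82 times the density of the list (0.497 to 4.67), and 23.2% of windows of this length held 4 or more. At or above the median score 1 of the 4 was left, the ratio was 0.893, and 59.9% of windows held as many; with 100 kb on either side the ratio was 3.24 and with 500 kb 1.18. Among the 1137 windows with at least 16 HNF6 regions, the median was 4 NKX6.1 and 2 listed GATA6 regions, and 3.25% and 11.9% of them held none.

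The edges of the windows left few doubtful members. The outermost HNF6 regions inside were 181.6 kb before and 193.95 kb after HHEX, and the next outside were 345.2 kb before it with a score of 59 and 285.7 kb after it with a score of 41. At PROX1 the farthest HNF6 region inside was 173.8 kb after the gene, and the next outside were 229.3 kb after it with a score of 98 and 237.6 kb before it with a score of 72. An NKX6.1 region with a score of 56 lay 216.1 kb after PROX1.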

How the data were processed

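Each of the 4 lists deposited by the authors holds the peaks of 1 library, without a header line, as position, name and a whole-number score. What the score measures is not given in the sources used. The tools Bowtie2 2.3.4.1 and MACS2 2.1.1.20160309 and the build hg19 are listed per the submitters' processing notes, without saying how each was used. Groups follow the sample titles. Scores were ranked within a list and not compared between lists. Read depth is unknown from the lists, and a deeper library would list more regions.

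Where rows shared both coordinates they were taken as 1 region, keeping the top score. This gave 64919 regions for HNF6 on day 10 and 250 on day 5, 6285 for GATA6 and 14627 for NKX6.1. The GATA6 list is partial: 6285 of 19404 peak numbers are listed, all at HNF6 day 10 regions. Coordinates are 1-based on hg19, and gene spans came with the choice of loci. A shared base sufficed for overlap. Counts were made in Python 3.11.15 (numpy 2.4.6, pandas 2.3.3) and equalled those of bedtools 2.31.1 for every pair of lists. The code was tested on simulated data. Intervals are Wilson 95% intervals (statsmodels 0.14.6) for shares and exact Poisson intervals (scipy 1.17.1) for densities, which cover counting error only, as does the limit of 3 counts for a count of 0. Genome windows were tiled without overlap from the first base of each chromosome to the farthest listed position. Regions on unplaced contigs were left out of densities and windows.

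Named regions are all GATA6 and NKX6.1 regions, the 10 strongest HNF6 day 10 regions per locus, those within 5 kb of a gene span and all that overlap another list. The loci, this rule and the alternatives were chosen with earlier results of these data known, and the windows rich in HNF6 after seeing the counts.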

Additional observations from a re-analysis of the deposited data

How the results depend on the processing

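Of 142 alternative values, 115 stayed within 1.5 times the reported count or within its 95% interval. This total includes values that could not move. A count of 0 cannot rise with a stricter score, overlap or window, and 100% of windows hold at least 0 regions. Wide intervals also let values pass: the HHEX GATA6 density ratio fell from 5.98 to 2.41 with 500 kb, inside 1.94 to 14.0. Asking overlap to cover 50% of the shorter region, asking midpoints to lie within 200 bp, measuring from the start site and counting any base in the window left their counts within 1.5 times: with midpoints within 200 bp 3 of the HHEX HNF6 regions had GATA6 in place of 4, and from the start site PROX1 held 15 HNF6 regions in place of 16. With 100 kb on either side, HHEX held 10 HNF6 and 2 GATA6 regions, 2 of its HNF6 regions overlapped GATA6, and 14.2% of equally HNF6-rich windows had no NKX6.1 region. With 500 kb, HHEX held 1 NKX6.1 region, and PROX1 held 40 HNF6 regions and 2 GATA6 regions, both at HNF6 regions, with a median GATA6 percentile of 56.95. With rows as deposited that percentile was 58.9. At scores of at least 50, HHEX held 3 GATA6 regions and PROX1 10 HNF6 and 1 NKX6.1 regions. At or above the median score, HHEX held 11 HNF6 and 2 GATA6 regions with 2 overlaps, and PROX1 9 HNF6 and 1 NKX6.1 regions. The share of windows with at least as many regions was then 5.07% (HNF6) and 8.59% (GATA6) for HHEX, and 15.0% (HNF6), 34.4% (GATA6) and 59.9% (NKX6.1) for PROX1. Among windows with at least 1 region it was 10.6% (HNF6) for HHEX and 18.6% (HNF6), 57.2% (GATA6) and 25.2% (NKX6.1) for PROX1. No paired analysis was possible because each factor and day has 1 library, and no library could be left out. The count of weak regions is limited by the lower end of each list, and read depth is unknown.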

Other observations

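The GATA6 peak numbers give a bound on what the partial list leaves out around these genes. Listed GATA6 numbers follow position along each chromosome. At HHEX the listed numbers run from 2352 to 2357 with 1 of the 6 left out, between the regions at 94487460 to 94487682 and 94566216 to 94566666. The listed neighbours on the chromosome are numbers 2342, 1004 kb before HHEX, and 2372, 2221 kb after it, so 24 numbered peaks between these neighbours were not analysed here. At PROX1 the listed neighbours are numbers 1388, 332.4 kb before the gene, and 1403, 2166 kb after it, with 1392 alone between them in the list, so 13 numbered peaks were not analysed here. The number left out between 2352 and 2357 lies within the HHEX window. How many of the others lie within 200 kb of either gene is unknown, and the counts of GATA6 regions are lower limits for that reason.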
